A study of Homo sapiens with 12 samples.

Results

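The 5 loci of the plasminogen activator system described here are PLAU, PLAT, PLAUR, SERPINB2 and SERPINB5. The members are the peak pairs of ChIP-exo lists whose midpoints lie in the hg19 body of 1 of these genes or within 20 kb of it. In all, 824 of the 2591856 peak pairs of 11 lists met this rule, and the 5 loci are a small set among 20090 protein-coding loci cut in the same way. ChIP-exo is a form of chromatin immunoprecipitation in which an exonuclease trims the bound DNA to the crosslink, and a peak pair joins the trimmed edges of both strands. The cells were DCIS.COM, a basal human breast cancer line that forms ductal carcinoma in situ. BCL9-knockdown (KD) cells gave 2 libraries with an antibody against serine-phosphorylated STAT3 (pSTAT3) and 2 with an antibody against BCL9. Non-silencing control (NS) cells of the same line gave 3 libraries with each of these antibodies and 1 with an antibody against CTCF. The IgG library was not analysed here. No source states that replicates were separate cultures, so p-values measure only the spread between these libraries.

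Plasmin is the protease that dissolves fibrin and helps to degrade extracellular matrix, and it is made from plasminogen by 2 activators. PLAU encodes urokinase, which acts mainly at the surface of migrating cells, and PLAT encodes the tissue-type activator, which acts mainly on fibrin clots. PLAUR encodes the receptor that holds urokinase at the cell membrane. SERPINB2 encodes plasminogen activator inhibitor type 2, a serpin that blocks urokinase. SERPINB5 encodes maspin, a serpin of mammary epithelium known as a tumour suppressor, which does not act as a classical protease inhibitor. STAT3 is a transcription factor activated by cytokines and growth factors, and BCL9 is a coactivator best known from its place between beta-catenin and Pygopus in Wnt signalling.

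The lists differed in length, and conditions and antibodies were therefore compared below on shares or ranks within a list. Pair counts and tags are printed beside them without scaling. KD cells gave 415624 and 493174 pSTAT3 pairs, against 118933, 98665 and 374089 in control cells. The BCL9 antibody gave 95586 and 336493 pairs in KD cells, against 28690, 24728 and 148755 in control cells, and the CTCF list held 457119. The signal of each pair was read as a number of sequence tags, and the lowest value listed ranged from 3 to 9 tags between lists. It was 9 in control BCL9 replicate 2, which could therefore hold no weaker pair. Where 0 or no tags are given for a region below, the list held no pair there, and a signal under its lowest value is not excluded. The lists hold no RNA or protein values, so neither the identity of the cells nor the loss of BCL9 could be checked from them. The depth of sequencing is unknown, since the files hold no read totals.

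Overlapping 100 bp windows around the midpoints of the 10 pSTAT3 and BCL9 libraries were joined into 262 regions in the 5 loci. PLAU held 53, PLAT 68, PLAUR 67, SERPINB2 29 and SERPINB5 45. The regions found in most libraries carry the results below, and 8 of their sequences are given here, each 100 bp around the median midpoint, on the plus strand of hg19. Capitals mark 7 to 9 base strings searched on both strands, namely the AP-1 string TGANTCA, the STAT string TTCNNNGAA and the TEAD string CATTCCA. Distances are from the start of the canonical transcript, negative against the direction of transcription. The PLAU regions at -16.4, -11.6 and -2.06 kb and the SERPINB2 region are shown for their strings or their antibody, the others for the number of libraries, and the 3 PLAU ones were chosen after their values were seen.
PLAU +21.4 kb, chr10:75692205-75692304: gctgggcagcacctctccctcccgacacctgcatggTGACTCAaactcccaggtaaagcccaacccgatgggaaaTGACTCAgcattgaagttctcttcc
PLAU -4.21 kb, chr10:75666628-75666727: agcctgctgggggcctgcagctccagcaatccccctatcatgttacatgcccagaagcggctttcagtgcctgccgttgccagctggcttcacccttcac
PLAU -16.4 kb, chr10:75654443-75654542: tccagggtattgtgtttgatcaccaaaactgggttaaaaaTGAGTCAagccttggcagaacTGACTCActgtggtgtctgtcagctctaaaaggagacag
PLAU -11.6 kb, chr10:75659208-75659307: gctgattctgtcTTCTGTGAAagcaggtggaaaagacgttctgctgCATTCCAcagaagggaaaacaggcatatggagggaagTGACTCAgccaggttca
PLAU -2.06 kb, chr10:75668782-75668881: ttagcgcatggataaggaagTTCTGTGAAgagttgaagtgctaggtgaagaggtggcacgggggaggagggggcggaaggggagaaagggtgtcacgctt
PLAUR -5.46 kb, chr19:44179728-44179827: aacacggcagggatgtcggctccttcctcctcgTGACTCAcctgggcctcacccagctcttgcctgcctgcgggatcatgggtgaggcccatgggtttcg
SERPINB2 -4.97 kb, chr18:61549914-61550013: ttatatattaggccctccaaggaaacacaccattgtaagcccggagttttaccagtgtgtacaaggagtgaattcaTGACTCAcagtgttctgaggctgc
SERPINB5 -0.193 kb, chr18:61143948-61144047: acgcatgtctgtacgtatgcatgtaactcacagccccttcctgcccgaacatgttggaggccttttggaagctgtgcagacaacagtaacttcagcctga

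PLAU, on chromosome 10 from 75668935 to 75677254, held the densest cluster of peak pairs of the 5 loci with pSTAT3. The pSTAT3 lists held 52 and 50 pairs there in KD cells, against 26, 10 and 46 in control cells. The BCL9 lists held 7 and 32 pairs in KD cells, against 4, 4 and 14 in control cells. Per 10000 pairs of the list, PLAU had 1.13 ± 0.168 pSTAT3 pairs in KD cells (SD, n = 2) and 1.48 ± 0.624 in control cells (SD, n = 3). The same share for BCL9 was 0.842 ± 0.155 in KD cells and 1.32 ± 0.345 in control cells (SD, n = 2 and 3). Both sets of values overlapped between conditions, with differences KD minus control of -0.344 and -0.476. The sign depended on the setting, and the pSTAT3 difference was 0.0109 without control pSTAT3 replicate 1. The pSTAT3 and BCL9 differences were 0.263 and 0.362 with a minimum of 9 tags, and 0.053 and 0.0741 without flanks. They were 0.472 and 0.135 at equal list length, where tied pairs were kept in order of genome position. Above the tied value PLAU had 4 and 5 pSTAT3 pairs in KD cells, against 8, 3 and 5 in control cells. With ties included it had 6 and 7, against 10, 4 and 5. Among all protein-coding loci, PLAU stood at percentile 99.3 in KD and 99.2 in control cells for pSTAT3 pairs per kb, and at 95.8 and 96.8 for BCL9. In the CTCF list the locus held 15 pairs and stood at percentile 68.6.

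The PLAU pairs were not spread over the locus but gathered upstream of the gene and in a block past its end. The region 21.4 kb downstream of the start, 556 bp long, was found in 9 of 10 libraries and carries a pair of AP-1 strings in the sequence above. Its strongest pair had 37 and 34 pSTAT3 tags in KD cells, against 12, 17 and 26 in control cells. With BCL9 it had 16 tags in KD replicate 2 and none in KD replicate 1, against 7, 12 and 8 in control cells. This was the strongest pair of PLAU in 4 of the 5 pSTAT3 lists, all but control replicate 1, and in 3 of the 5 BCL9 lists. The region 4.21 kb upstream, 658 bp long, was likewise found in 9 of 10 libraries, and its central 100 bp held none of the 7 strings searched. There pSTAT3 gave 24 and 23 tags in KD cells, against 17, 6 and 21 in control cells, and BCL9 gave 7 and 10 tags in KD cells, against 5, 0 and 18 in control cells. The third region, 21.9 kb upstream at the edge of the 20 kb flank, was found in 8 libraries and continues outside it. Its highest value, 36 tags in KD BCL9 replicate 1, stood at rank 936 of that list. Tags are not scaled for depth, so in this and all later paragraphs they are set side by side and not compared across lists.

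In PLAU 29 of the 53 regions were listed with pSTAT3 alone, beside 65.3% of the genome's regions. The region 2.06 kb upstream of the canonical start, which reaches the first annotated base of the gene, had 22 and 17 pSTAT3 tags in KD cells, against 10, 0 and 18 in control cells. The region 16.4 kb upstream, with AP-1 strings on either side of its centre, had 14 and 27 tags in KD cells, against 6, 0 and 15 in control cells. Neither region was in any of the 5 BCL9 lists, but the region next to the first, 1.83 kb upstream, had 8 BCL9 tags in KD replicate 2. The region 11.6 kb upstream carries the AP-1, STAT and TEAD strings within 100 bp and was found in all 5 pSTAT3 and 3 BCL9 lists. Its pSTAT3 tags were 15 and 24 in KD cells, against 9, 6 and 14 in control cells. The same 9 bases, TTCTGTGAA, made up the STAT string at -11.6 and at -2.06 kb. Of the 53 PLAU regions, 18 lay in C10orf55, a lncRNA gene that overlaps PLAU, and none of these was in more than 2 libraries.

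**Figure D1:**
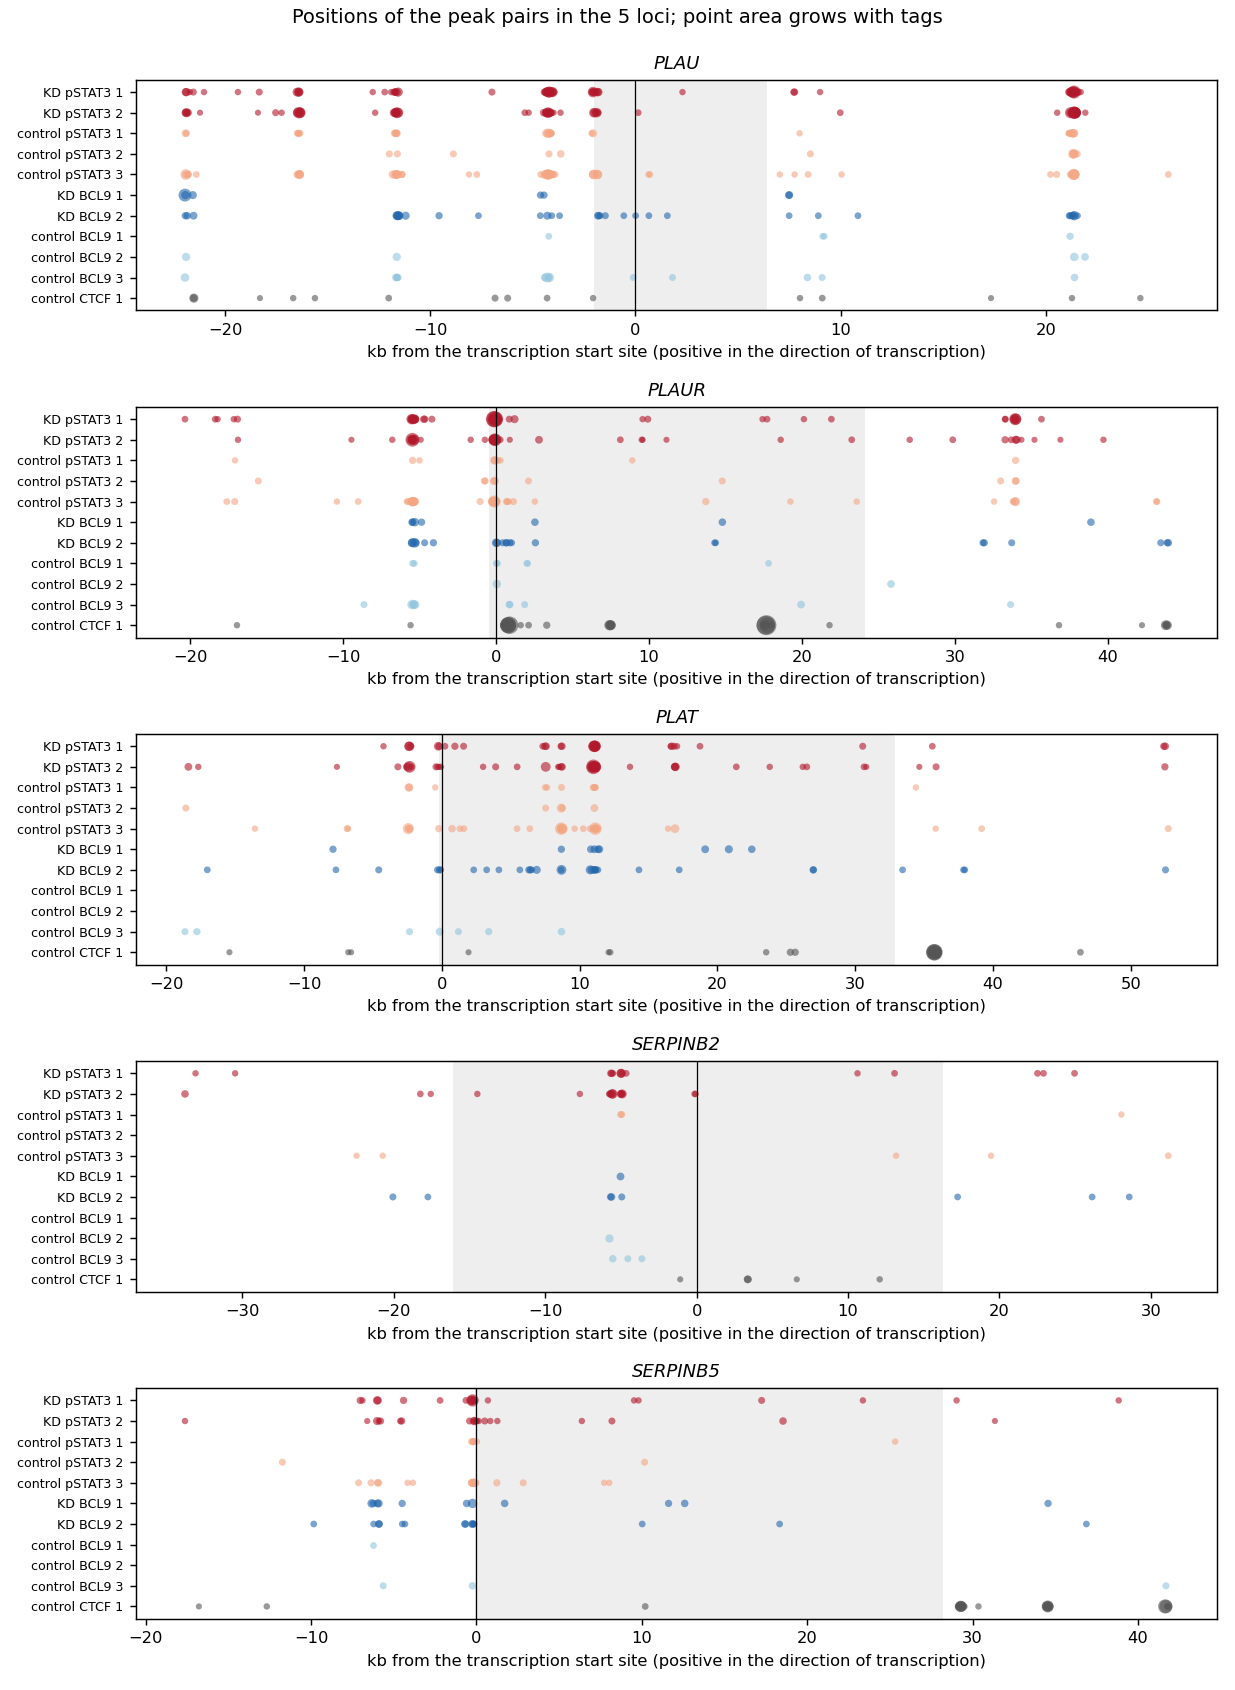
Midpoints of the peak pairs in each locus, in kb from the start of the canonical transcript on the x axis and by library on the y axis, with point area growing with tags and the gene body in grey. In PLAU the pairs of most libraries stack near -4.21 and +21.4 kb, and in SERPINB2 they stack only about 5 kb upstream of the start.

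PLAT, on chromosome 8 from 42032236 to 42065227, was the locus where the BCL9 lists of the conditions stood furthest apart. The BCL9 lists held 9 and 30 PLAT pairs in KD cells, against 0, 0 and 7 in control cells. That was 0.917 ± 0.0354 per 10000 in KD cells (SD, n = 2) and 0.157 ± 0.272 in control cells (SD, n = 3), a difference of 0.76, and the groups did not overlap. An exact two-sided permutation test of the 5 libraries gave p = 0.2, where the smallest p that 10 assignments allow is 0.1. Higher in every KD than in every control BCL9 library were 18.4% of the 14221 loci tested, and 5.51% were lower in every KD library. At the KD share the control lists would have held 2.63, 2.27 and 13.6 PLAT pairs, where 0, 0 and 7 were listed. With the 24728 strongest pairs of each list PLAT had 0 and 2 BCL9 pairs in KD cells and none in control cells, and the groups overlapped. With pSTAT3 the lists held 31 and 44 pairs in KD cells, against 11, 5 and 31 in control cells, or 0.819 ± 0.103 (SD, n = 2) and 0.753 ± 0.219 per 10000 (SD, n = 3), and the groups overlapped.

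The main PLAT regions lay inside the gene, outside the exons of the canonical transcript. The region 11.1 kb downstream of the start, 536 bp long, had 28 and 48 pSTAT3 tags in KD cells, against 6, 9 and 34 in control cells. It had 9 and 14 BCL9 tags in KD cells and was in none of the 3 control BCL9 lists. The region 8.68 kb downstream was found in 8 libraries, with 8 and 8 pSTAT3 tags in KD cells, against 6, 14 and 32 in control cells. Its BCL9 tags were 7 and 18 in KD cells, against 0, 0 and 8 in control cells. Both held the AP-1 string near their centre. The region 2.36 kb upstream was found in 4 pSTAT3 lists and 1 BCL9 list. Of the 68 PLAT regions, 4 lay in the neighbouring gene AP3M2, which encodes an adaptor subunit of vesicle transport, and none of these was in more than 3 libraries.

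PLAUR, on chromosome 19 from 44150247 to 44174699, was the member whose strongest pSTAT3 pair stood higher in both KD lists than in every control list. The pSTAT3 lists held 38 and 36 PLAUR pairs in KD cells, against 9, 10 and 38 in control cells. Per 10000 pairs the share was 0.822 ± 0.13 in KD cells (SD, n = 2) and 0.929 ± 0.149 in control cells (SD, n = 3), with overlap. The BCL9 lists held 7 and 22 pairs in KD cells, against 7, 2 and 10 in control cells, and the shares overlapped at 0.693 ± 0.0555 (SD, n = 2) and 1.31 ± 0.983 (SD, n = 3). The wide spread in control cells came from replicate 1, with 2.44 pairs per 10000 in a list whose lowest pairs had 5 tags. The strongest PLAUR pair stood at ranks 1827 and 6533 of the KD pSTAT3 lists, against 18598, 13028 and 8486 of the control lists, and the groups did not overlap. The geometric mean rank was 3455 in KD and 12716 in control cells (exact two-sided permutation p = 0.1, the smallest possible). Of the 13244 loci with a pair in all 5 pSTAT3 lists, 5.57% had a stronger best rank in both KD lists than in every control list and 26.6% a weaker one. For the 4856 loci in all 5 BCL9 lists the shares were 7.78% and 16.6%, and PLAUR overlapped there.

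Ranks as a percent of the list gave a different count. PLAUR then stood at 0.44% and 1.32% of the KD pSTAT3 lists, against 15.6%, 13.2% and 2.27% of the control lists. PLAU joined it, with 1.88% and 2.28% in KD cells, against 6.23%, 4.93% and 3.42% in control cells. On this scale 29.7% of loci were stronger in both KD pSTAT3 lists and 0.491% weaker, so the background itself lay on the side of the longer KD lists. For BCL9, PLAU stood at 0.979% and 3.91% in KD cells, against 26.3%, 33% and 5.5% in control cells, on a background of 31.6%.

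The PLAUR pairs stacked at the start of the gene and upstream of it. The region around the start, 504 bp long with its centre 102 bp upstream, was in all 5 pSTAT3 lists and 3 BCL9 lists. It had 61 and 35 pSTAT3 tags in KD cells, against 11, 11 and 31 in control cells. Its BCL9 tags were 0 and 12 in KD cells, against 6, 12 and 0 in control cells. The region 5.46 kb upstream, printed above with its AP-1 string, had 21 and 42 pSTAT3 tags in KD cells, against 7, 0 and 16 in control cells. With BCL9 it had 12 and 17 tags in KD cells, against 6, 0 and 17 in control cells, and it held the strongest PLAUR pair of both KD BCL9 lists and of control BCL9 replicate 3. The region 34 kb downstream lay in CADM4, a gene for a cell adhesion molecule, and was in all 5 pSTAT3 lists and no BCL9 list. In all, 15 of the 67 PLAUR regions lay in CADM4.

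**Figure D2:**
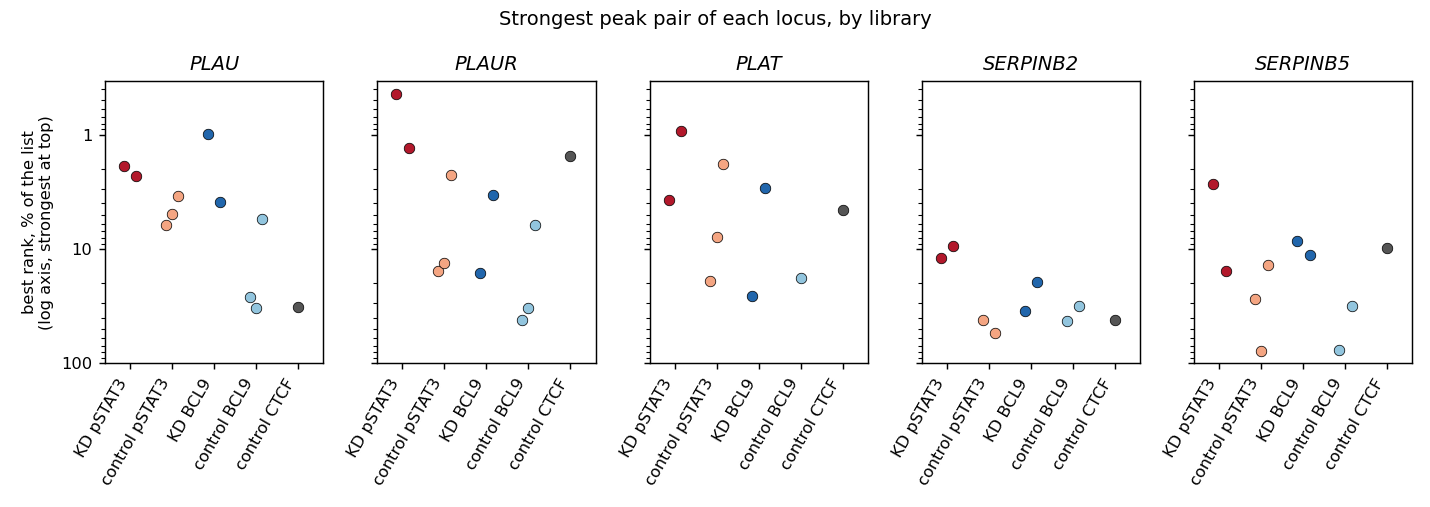
Rank of the strongest peak pair of each locus as a percent of its list, on a log axis with the strongest at the top, by group and with 1 point per library. PLAUR reaches 0.44% in KD pSTAT3 replicate 1, and loci with no pair in a library have no point.

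SERPINB2, on chromosome 18 from 61538926 to 61571122, held the fewest pairs of the 5 loci. The pSTAT3 lists held 14 and 16 pairs in KD cells, against 3, 0 and 5 in control cells. That was 0.331 ± 0.00878 per 10000 in KD cells (SD, n = 2) and 0.129 ± 0.126 in control cells (SD, n = 3), a difference of 0.202 without overlap (exact two-sided permutation p = 0.2). Of the 18176 loci tested, 13% were higher in every KD pSTAT3 library and 7.59% lower. At the KD share the control lists would have held 3.93, 3.26 and 12.4 pairs. All SERPINB2 pairs of these lists were weak: none was among the 24728 strongest of its pSTAT3 list, and with overlapping windows merged the conditions overlapped. The BCL9 lists held 1 and 8 pairs in KD cells, against 0, 1 and 3 in control cells, and the shares overlapped. SERPINB2 stood at percentile 64.5 of all loci in KD and 30.4 in control cells for pSTAT3, and at 37.2 and 59 for BCL9.

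Of the 29 SERPINB2 regions, 27 were in a single library, and the other 2 lay next to each other about 5 kb upstream of the canonical start, inside a longer transcript of the gene. The region 4.97 kb upstream, with the AP-1 string printed above, had 15 and 14 pSTAT3 tags in KD cells, against 6, 0 and 0 in control cells, and 9 and 6 BCL9 tags in KD cells with none in control cells. The region 5.61 kb upstream had 8 and 17 pSTAT3 tags in KD cells and none in control cells. Its BCL9 tags were 0 and 8 in KD cells, against 0, 11 and 8 in control cells. Ranked by this rule, the third SERPINB2 region was a pair of 8 tags in 1 library. The overlapping genes SERPINB10, a related serpin, and ENSG00000289724 held 12 of the 29 regions, each in 1 library.

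SERPINB5, on the same chromosome from 61144191 to 61172318, had more BCL9 pairs per 10000 in both KD libraries, while its pSTAT3 shares overlapped. The pSTAT3 lists held 19 and 20 pairs in KD cells, against 6, 2 and 16 in control cells, or 0.431 ± 0.0365 (SD, n = 2) and 0.378 ± 0.157 per 10000 (SD, n = 3), with overlap. The BCL9 lists held 11 and 15 pairs in KD cells, against 1, 0 and 3 in control cells. That was 0.798 ± 0.499 per 10000 in KD cells (SD, n = 2) and 0.183 ± 0.175 in control cells (SD, n = 3), a difference of 0.615 with no overlap (exact two-sided permutation p = 0.1, the smallest possible). With BCL9, 18.4% of the 14221 loci tested were likewise higher in every KD library and 5.51% lower. At the KD share the control lists would have held 2.29, 1.97 and 11.9 pairs. The KD values themselves differed, with 1.15 per 10000 in replicate 1 and 0.446 in replicate 2, and without KD replicate 1 the difference was 0.262. The conditions overlapped with overlapping windows merged, and at equal list length.

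The leading SERPINB5 region covered the start of the gene. It was 428 bp long, with its centre 193 bp upstream, and its central 100 bp held none of the 7 strings. It had 32 and 12 pSTAT3 tags in KD cells, against 8, 0 and 12 in control cells. With BCL9 it had 16 and 10 tags in KD cells, against 0, 0 and 8 in control cells. Further regions lay 5.93 and 4.49 kb upstream, in 5 and 4 libraries. The first had 11 and 10 pSTAT3 tags in KD cells, against 0, 0 and 8 in control cells. The second was listed in all 4 KD libraries, with 5 to 7 tags, and in no control library. The lowest pairs listed had 4, 6 and 4 tags in the control pSTAT3 lists and 5, 9 and 6 in the control BCL9 lists. A pair of 5 to 7 tags could thus not enter every control list. No other annotated gene covered a SERPINB5 region.

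**Figure D3:**
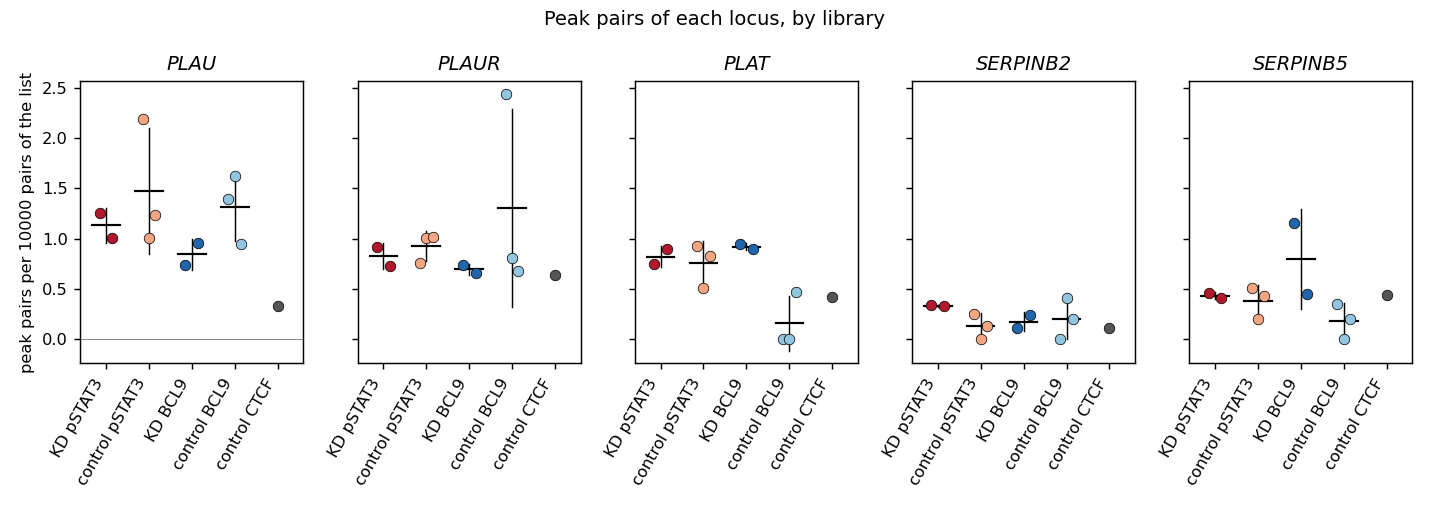
Peak pairs of each locus per 10000 pairs of the list, by group, with points for libraries and lines for the mean and SD of groups with 2 or 3 libraries. PLAT and SERPINB5 with BCL9, and SERPINB2 with pSTAT3, are the cases where every KD point lies above every control point.

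The antibodies were next compared over both conditions, 5 libraries against 5. PLAT had 0.78 pSTAT3 and 0.461 BCL9 pairs per 10000, a difference of 0.319 (exact two-sided permutation p = 0.23, adjusted p = 0.622). PLAU had 1.34 pSTAT3 and 1.13 BCL9 pairs per 10000 (exact p = 0.54). For PLAUR, SERPINB2 and SERPINB5 the differences were -0.175, 0.0197 and -0.0298. The adjusted p is a Benjamini-Hochberg value over 18799 loci, of which 0% passed 0.05 and 13.1% had an unadjusted p below 0.05. The smallest p this design allows, 0.00794, could pass only if 15.9% of the loci reached it, so the absence of calls with all pairs says little. With the 24728 strongest pairs of each list 813 of 4899 loci passed the adjusted threshold of the same exact permutation test. None was PLAU, PLAUR or PLAT, the members with enough pairs to be tested there, and PLAT had the lowest adjusted p of these, 0.0916, by the exact permutation test. Tags are tied at that length, and tied pairs were kept in order of genome position, so these calls rest in part on that order. In control BCL9 replicate 1, 14896 pairs lay above the cut and 28690 at or above it. Within control cells alone, PLAT was the member whose antibodies did not overlap, with 0.753 ± 0.219 pSTAT3 and 0.157 ± 0.272 BCL9 pairs per 10000 (SD, n = 3 each). In KD cells PLAT had 0.819 ± 0.103 and 0.917 ± 0.0354 (SD, n = 2 each), with overlap, while PLAU and SERPINB2 had higher shares in both pSTAT3 than in both BCL9 libraries. These values within a condition have no test. The share of all loci without overlap between antibodies was not computed, so the members named cannot be set apart from other loci.

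In KD cells 46% ± 1.11 of the pSTAT3 windows in the 5 loci shared at least 1 bp with a BCL9 window of the same condition (SD, n = 2), against 32.3% ± 1.73 of all windows of the lists. In control cells the shares were 38% ± 9.63 in the 5 loci and 34.3% ± 12 over the lists (SD, n = 3). Of the BCL9 windows in the 5 loci, 50.5% ± 2.66 in KD cells (SD, n = 2) and 61.1% ± 4.97 in control cells (SD, n = 3) shared a base with a pSTAT3 window, beside 45.6% ± 13.9 and 62.8% ± 16.7 over the lists. PLAU supplied 30 of 72 and 31 of 75 such pSTAT3 windows in the KD libraries, and 18 of 27, 5 of 9 and 19 of 43 in the control libraries. In SERPINB2, 6 of 14 and 9 of 16 pSTAT3 windows shared a base with BCL9 in KD cells, against 0 of 3 and 0 of 5 in the control libraries that had any. The BCL9 lists they were matched to held more SERPINB2 pairs in KD cells, 1 and 8 against 0, 1 and 3 in control cells. With midpoints within 25 bp counted instead, the pSTAT3 shares were 21.1% ± 5.98 in the 5 loci and 17.8% ± 1.44 over the lists in KD cells (SD, n = 2), and 17.5% ± 2.6 and 20.7% ± 7.8 in control cells (SD, n = 3). With the 24728 strongest pairs of each list the order turned in both conditions. Then 28.3% ± 16.5 of the KD pSTAT3 windows in the 5 loci shared a base (SD, n = 2), against 65.5% ± 0.26 over the lists, on 18 and 15 windows, and the control shares were 50.4% ± 7.75 and 63.8% ± 6.24 (SD, n = 3). Of the PLAU windows, 2 of 6 and 5 of 7 shared a base in KD cells, and 7 of 8, 3 of 3 and 5 of 5 in control cells. PLAUR had 0 of 7 and 1 of 4 in KD cells, and PLAT 0 of 4 in each KD library. In control cells PLAUR had 0 of 2 in each library, and PLAT 0 of 2, 0 of 2 and 0 of 3. Tied pairs at that length were kept in order of genome position. None of these shares was tested.

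The strongest CTCF pair of each locus lay outside the regions found in most libraries. The strongest CTCF pair of PLAUR, with 95 tags at rank 7074, lay 17.7 kb downstream of the start, and 1 pSTAT3 library and no BCL9 library had a window there. In PLAT it lay 35.7 kb downstream with 64 tags, in SERPINB5 41.6 kb downstream with 45 tags, in PLAU 21.5 kb upstream with 15 tags, and in SERPINB2 3.39 kb downstream with 9 tags. A PLAUR region 0.876 kb downstream of the start, with 71 CTCF tags, was in 5 of the 10 libraries, with at most 8 tags in each. Of the 262 regions, 24 (9.16%) touched a CTCF window, against 6.09% of 1106699 regions of the genome. Of the 9 regions in at least 7 libraries, 4 did so, against 26.7% of 16026 such regions of the genome, and the CTCF tags at these 4 were 4 or 5.

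Sharing between libraries differed among the 5 loci. Of the 262 regions, 64 (24.4%) were in at least 2 libraries and 9 (3.44%) in at least 7, against 14.2% and 1.45% of the genome's regions. The regions in at least 2 libraries were 21 of 53 in PLAU, 19 of 67 in PLAUR, 16 of 68 in PLAT, 6 of 45 in SERPINB5 and 2 of 29 in SERPINB2, so most of the 64 lay in PLAU, PLAUR and PLAT. These shares have no test. Both antibodies had windows in 40 regions (15.3%), pSTAT3 alone in 162 and BCL9 alone in 60, and both antibodies had windows in 8.99% of the genome's regions. PLAU held 4 of the 9 regions in at least 7 libraries, PLAUR and PLAT 2 each, SERPINB5 1 and SERPINB2 none.

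The AP-1 string was found in the central 100 bp of 6 of these 9 regions (66.7%), namely the PLAU ones at -21.9, -11.6 and +21.4 kb, both PLAT ones and the PLAUR one at -5.46 kb. The same string was in 35.1% of the genome's regions in at least 7 libraries. Among the 198 regions in 1 library it was in 6 (3.03%), against 4.2% of such regions of the genome. Among the 55 regions in 2 to 6 libraries it was in 7 (12.7%), against 16.6%. Over all 262 regions it was in 19 (7.25%), against 6.23%. With 200 bp windows, 8 of the 9 regions held it, against 48.5%. The STAT string was in 16 of 262 regions (6.11%), against 3.21% of the genome's regions, and 12 of the 16 were in 1 library. The C/EBP string TTGCNNAA was in 11 regions (4.2%), against 5.69%, and the PLAUR region at the start was 1 of them. TEAD was in 5, REL (GGANTTTCC) in 2, TCF/LEF (CTTTGAT) in 2 and ETS (CCGGAAG) in none, against 2.06%, 0.395%, 1.51% and 0.393% of the genome's regions. A string is a match of letters, and a region without it may hold other forms of the site.

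**Figure D4:**
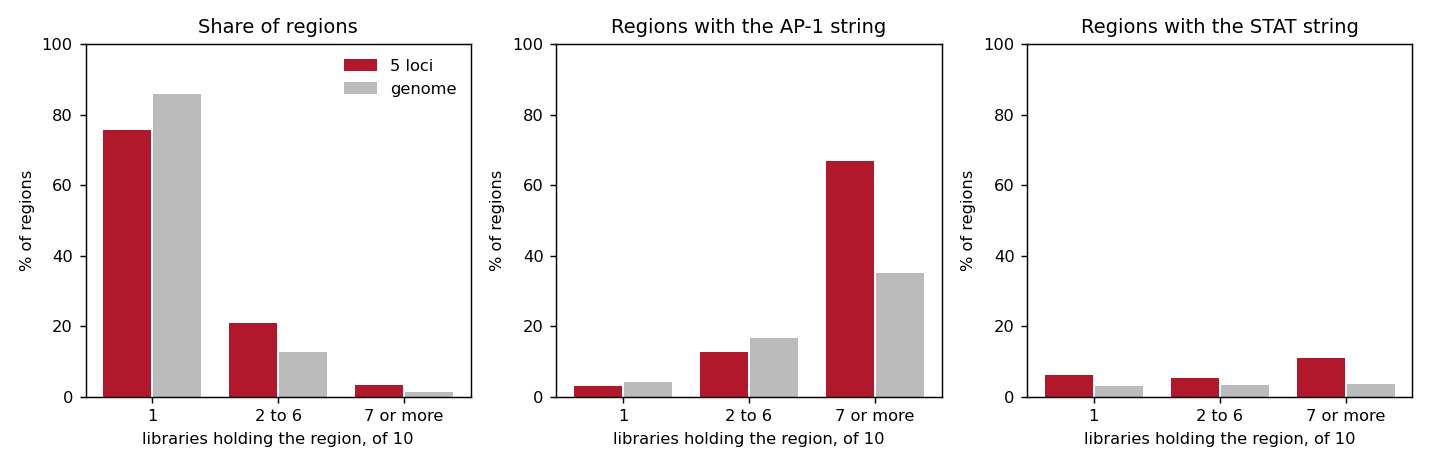
Shares of the 262 regions of the 5 loci and of 1106699 regions of the genome, by the number of the 10 libraries that hold a region (left), and the share of each class with the AP-1 string (middle) or the STAT string (right) in its central 100 bp. Regions in at least 7 libraries carry the AP-1 string in 66.7% of the 9 cases in the 5 loci and in 35.1% of cases in the genome. For regions in 2 to 6 libraries the shares are 12.7% and 16.6%.

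Of 13 other genes of the plasminogen system, 2 were higher in every KD than in every control pSTAT3 library and 1 was lower, beside 13% and 7.59% of all loci. With BCL9 none was higher and 1 lower, beside 18.4% and 5.51% of all loci. PLG, with 8 BCL9 pairs, was below the minimum of 10 pairs that all 5 members passed. ANXA2 was the gene lower in KD with both antibodies. ANXA2 encodes annexin A2, which with S100A10 binds plasminogen at the cell surface, and it had 3.5 ± 0.122 pSTAT3 pairs per 10000 in KD cells (SD, n = 2) and 4.79 ± 0.826 in control cells (SD, n = 3). Its BCL9 shares were 5.01 ± 0.906 in KD and 10 ± 4 in control cells (SD, n = 2 and 3), and neither antibody's groups overlapped (exact two-sided permutation p = 0.2 for each). ANXA2 stood at percentile 99.9 for both antibodies in both conditions. With pSTAT3, CPB2, which encodes an inhibitor of fibrinolysis, and LRP1, the receptor that clears urokinase-inhibitor complexes, did not overlap in the other direction. CPB2 had 0.32 ± 0.0231 in KD and 0.173 ± 0.15 in control cells, and LRP1 had 0.682 ± 0.0111 in KD and 0.36 ± 0.174 in control cells (SD, n = 2 and 3). Plasminogen itself, PLG, a liver gene, stood at percentile 18.6 in KD and 14.6 in control cells for pSTAT3. Between the antibodies 3 of the 13 genes had an unadjusted exact p below 0.05, beside 13.1% of all loci, namely HGF, LYPD3 and ANXA2, and their adjusted p were 0.299, 0.33 and 0.354.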

How the data were processed

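ChIP-exo libraries of DCIS.COM cells were analysed from 11 deposited lists of peak pairs, 1 per library and on hg19. The deposited value of a pair is a signal from the authors' peak calling. Each value, divided by the step of its library, came within 0.01 of an integer and was read as tags, and no source here explains the step. ChExMix is the caller named by the study and bcl2fastq the tool in the submitters' notes, while the lists themselves are tagged with a pairing program. The aligner was not given in any source read. Gene bodies came from GENCODE v44 lifted to GRCh37, the same build. Pairs were counted per 10000 of the list in gene bodies with 20 kb on each side, for loci with at least 10 pairs over the libraries compared. Conditions were compared by whether the libraries of both groups overlap, with exact two-sided permutation tests, and antibodies by exact permutation with Benjamini-Hochberg adjustment. The permutation test was tested on simulated data. The genes named are the 5 members, ANXA2 and other genes of the system that passed, and up to 3 regions a member, in most libraries and then of best median rank. PLG, HGF and LYPD3 and further PLAU regions were added after their values were seen, and 1 gene of the list is not reported here. The members, gene lists and strings were chosen with earlier results of these data known. Depth per library is unknown, and intervals from counts were not computed. Alternatives changed the list length, tags, flank, merging, minimum and libraries. Python 3.11.15, numpy 2.4.6, pandas 2.3.3 and matplotlib 3.10.9 were used.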

Additional observations from a re-analysis of the deposited data

How the results depend on the processing

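Few pairs lie behind each value, and the number of loci without overlap between conditions moved with most choices. Shares in brackets are those of all loci tested that were higher and lower in KD under the same setting. For pSTAT3, where 1 locus (SERPINB2, higher in KD) did not overlap, the 24728 strongest pairs of each list gave 2, PLAUR and PLAT, both higher in KD (10% and 9.96%). The tags at that length are tied. With ties included PLAUR had 7 and 4 pairs in KD cells, against 2, 3 and 2 in control cells, and PLAT had 4 and 5 in KD cells, against 2, 2 and 4 in control cells, so the PLAT groups overlapped. A minimum of 9 tags gave 0 (15.8% and 10.5%). SERPINB2 remained higher in every KD library there, by 0.266, but was below the minimum of 10 pairs. Gene bodies without flanks gave 2, PLAUR lower and SERPINB2 higher (13.6% and 7.01%). Leaving out control replicate 1 of both antibodies, each from a single run by its file name, gave the same 2 (19.7% and 15.9%). Leaving out 1 pSTAT3 library at a time gave 1 to 2 (19.7% to 29.3% and 14% to 15.9%), with PLAUR lower in KD without KD pSTAT3 replicate 1 (-0.199) or without control pSTAT3 replicate 1 (-0.193). For BCL9, where 2 loci did not overlap, equal list length gave 0 (9.24% and 6.61%). A minimum of 9 tags gave 1 (17.8% and 6.16%) and no flank gave 1 (18.4% and 5.56%), PLAT higher in both. SERPINB5 also remained higher in every KD library there, by 0.479 and 0.187, but was below the minimum of 10 pairs. Leaving out 1 BCL9 library at a time gave 2 to 4 (23.5% to 38.2% and 10.2% to 13.9%), with 4 without control BCL9 replicate 3, PLAU and PLAUR lower, PLAT and SERPINB5 higher (38.2% and 13.9%). With overlapping windows merged, SERPINB2 with pSTAT3 and SERPINB5 with BCL9 overlapped between conditions, PLAU was lower in KD with both antibodies, and PLAT stayed higher with BCL9 (11.3% and 8.43% for pSTAT3, 14.5% and 6.95% for BCL9). PLAUR was also lower with BCL9 at a flank of 10 kb (-0.711), and PLAU at 50 kb.

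Calls between the antibodies were 0 members in every alternative. Except at equal list length no locus at all passed, so these counts say nothing about how stable the result is. At equal list length, with tied pairs kept by genome position, 813 of 4899 loci passed the adjusted threshold, against 0 of 18799 with all pairs. The deviations of same-numbered libraries correlated between -0.304 and 0.471 over 14192 loci. Libraries of unlike number were not correlated, so these values cannot tell whether replicate numbers mark pairs. With the replicate number as a block, the locus count was 1 for pSTAT3 (37.9% and 18.7% of all loci) and 4 for BCL9 (44.8% and 15.3%), from 2 pairs each, and 0 between the antibodies, whose smallest blocked p is 0.0625.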
